A study of Drosophila melanogaster with 2 samples.

Results

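Peaks at one-strand promoters are places where the chromatin immunoprecipitated with tailup (tup) was enriched next to transcript starts that all point the same way. A peak of the optimal list of the dm6 build entered the set where its summit lay within 500 bp of an annotated transcript start and every start within 500 bp was on the same strand. Of the 2241 optimal peaks, 720 met this rule (32.1%, Wilson 95% interval 30.2 to 34.1). Another 517 had starts of both strands within that distance and are called two-strand promoter peaks, and 1004 had no start that near. The members were thus chosen by 2 measured values, the pooled signal that set the optimal list and the distance from summit to start. The side of the start on which the summit lies, the sequence under it and the exons around it were not used.

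Tup is the fly member of the Islet family of LIM-homeodomain transcription factors, which act in the specification of motor neurons, heart and dorsal tissues of the embryo. A promoter is the stretch around a transcript start where the transcription machinery assembles. Its core elements, such as the TATA box and the initiator, sit at fixed places near the start, while factors such as DREF, BEAF-32 and the GAGA factor bind a little upstream. Fly genes often lie head to head and share 1 open stretch of DNA between divergent starts. A start with no opposite partner nearby gives a direction, upstream or downstream, to each summit.

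The samples formed 1 group with 2 biological replicates. Whole embryos aged 0 to 24 h, with both sexes mixed, came from a transgenic line in which tup was stably expressed with GFP at its C-terminus, so every sample carried the tagged protein. An antibody against GFP pulled down chromatin that sonication had cut to 200 to 800 bp. No group without the tag or without tup was analysed here, and a control alignment entered the authors' peak calling but was not analysed here. Because many cell types were mixed in each sample, binding in few cells and weak binding in many cannot be told apart, and peak lists hold no RNA by which the tissue could be checked. The depth of each replicate is unknown, since the lists hold no read totals.

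The promoters of 3 strong members show how the summits lie relative to the start. Each stretch runs along the gene from 225 bases before the start to the start and the 24 bases after it (250 bases, dm6, RefSeq copy of the assembly), and the capitals mark the 21 bases centred on the summit. CG14100 is at chr3L:19590500-19590749, minus strand, Ugalt at chrX:2703828-2704077, minus strand, and CG18549 at chr3R:12449071-12449320, plus strand.
CG14100: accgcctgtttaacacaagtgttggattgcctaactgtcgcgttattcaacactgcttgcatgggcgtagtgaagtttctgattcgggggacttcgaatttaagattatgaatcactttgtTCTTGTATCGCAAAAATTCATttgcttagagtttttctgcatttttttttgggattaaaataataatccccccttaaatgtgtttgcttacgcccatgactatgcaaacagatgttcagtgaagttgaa
Ugalt: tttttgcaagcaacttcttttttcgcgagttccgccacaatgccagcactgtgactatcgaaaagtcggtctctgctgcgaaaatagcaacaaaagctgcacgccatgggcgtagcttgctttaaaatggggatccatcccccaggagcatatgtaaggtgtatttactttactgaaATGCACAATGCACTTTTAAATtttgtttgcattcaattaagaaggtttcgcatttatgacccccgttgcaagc
CG18549: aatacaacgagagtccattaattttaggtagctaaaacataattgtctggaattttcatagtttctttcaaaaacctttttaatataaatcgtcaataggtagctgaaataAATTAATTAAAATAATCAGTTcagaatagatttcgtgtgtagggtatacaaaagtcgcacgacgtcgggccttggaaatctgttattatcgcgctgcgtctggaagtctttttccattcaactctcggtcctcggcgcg
The summits lay at -94, -38 and -104 bp from these starts, where a negative value is upstream. The GC content of the windows of 101 bases centred on them was 29.7%, 34.7% and 28.7%, against 38%, 43.2% and 36.4% over the whole stretches.

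The next windows, of 101 bases centred on the summit and written along the gene, are those of members that hold the motifs compared further on. Capitals mark the motif on either strand. TATAAA is the textbook TATA letters, CGATA is a core bound by the insulator protein BEAF-32, TATCGATA is the DRE bound by DREF, CANCNCTA is the promoter element called Motif 7, and GAGAGAG is bound by the GAGA factor.
CG31145, TATA, chr3R:23669811-23669911, minus strand: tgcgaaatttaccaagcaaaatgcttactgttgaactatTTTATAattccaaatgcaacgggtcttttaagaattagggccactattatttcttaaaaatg
CG13921, TATA, chr3L:1746691-1746791, plus strand: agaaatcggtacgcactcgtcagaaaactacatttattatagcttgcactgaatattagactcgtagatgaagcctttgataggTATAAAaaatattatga
CG11857, BEAF-32, chr3R:25258758-25258858, plus strand: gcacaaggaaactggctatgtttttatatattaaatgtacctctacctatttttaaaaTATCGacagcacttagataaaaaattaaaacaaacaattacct
RpS12, DRE, chr3L:13023272-13023372, plus strand: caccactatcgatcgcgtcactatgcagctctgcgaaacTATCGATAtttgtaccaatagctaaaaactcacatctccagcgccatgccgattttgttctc
eEF1gamma, DRE, chr3R:29220096-29220196, plus strand: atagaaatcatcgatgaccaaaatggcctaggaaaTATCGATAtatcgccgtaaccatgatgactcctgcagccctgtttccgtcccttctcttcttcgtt
CG7379, Motif 7, chr3R:17798334-17798434, minus strand: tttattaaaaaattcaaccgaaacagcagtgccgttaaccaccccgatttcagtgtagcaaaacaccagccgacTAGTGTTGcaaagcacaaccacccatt
CG33169, Motif 7, chr3L:22863720-22863820, plus strand: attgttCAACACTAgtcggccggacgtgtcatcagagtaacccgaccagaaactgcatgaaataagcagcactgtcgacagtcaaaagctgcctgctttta
prage, GAGA, chrX:1830806-1830906, plus strand: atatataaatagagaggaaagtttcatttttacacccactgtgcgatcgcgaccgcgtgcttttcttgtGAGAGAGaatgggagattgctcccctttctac
The TATA matches of CG31145 and CG13921 belong to summits at -202 and -166 bp, far from the place of a TATA box. The DRE windows of RpS12, a ribosomal protein gene, and eEF1gamma, a translation elongation factor gene, are centred at -30 and -26 bp.

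Signal, the caller's own measure of peak height, ran from 68.7 to 1172 among the members in the pooled list, with a median of 109 (95% interval 104 to 115.1). The scale is the authors' and differs between lists, so values are compared within a list only. The strongest member was at CG14100, with a signal of 1172 in the pooled list, 654 in replicate 1 and 519 in replicate 2. Ugalt, which encodes a UDP-galactose transporter of the Golgi, followed with 1066, 625 and 445. Both ranked 2nd and 3rd of all pooled candidates and held the same ranks in each replicate. The third, with 849, 499 and 354, lay at -204 bp from a start of px, in an intron of that gene (chr2R:22514149-22514457). At ph-p, which encodes the Polycomb group protein Polyhomeotic-proximal, the signals were 794, 457 and 343 and the summit was at -471 bp, in an intron of the gene (chrX:2137193-2137523). PNPase, the gene of the mitochondrial polynucleotide phosphorylase, had 781, 442 and 341 with the summit at 70 bp, downstream of the start in a non-coding part of an exon (chr3R:31404507-31404807). These 5 ranked within the strongest 9 in each list.

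The remaining 10 of the 15 strongest members had pooled signals from 480 to 695. They were at the long non-coding RNA genes CR31840, CR44619 (2 summits, 497 bp downstream and -423 bp from 1 start) and CR31044, at CG1888, CG18549, CG31145 and Tina-1, at larp, the gene of the La-related RNA-binding protein, and at mRpL41, a mitochondrial ribosomal protein gene. The summit of mRpL41, at -157 bp, had signals of 510, 277 and 228 in the pooled list, replicate 1 and replicate 2. Tina-1, at -170 bp, stood further apart between the replicates, with ranks of 19 in replicate 1 and 79 in replicate 2. All 15 had a candidate in both replicates. Of these 15 summits, 12 lay upstream of the nearest start.

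The 720 members were nearest to 704 distinct starts of 681 genes, and 16 starts had 2 member summits. Of the nearest genes, 657 members had a protein-coding one, 58 an ncRNA, 2 a snoRNA, 2 a tRNA and 1 an snRNA gene. Starts on the plus strand accounted for 337 members and starts on the minus strand for 383. A single start lay within 500 bp of 594 members, and 36 had starts of 2 or more genes there, so the gene named for those is only the nearest. Among starts with 2 members, E23, which encodes an ABC transporter, had summits at -177 bp (signal 255) and -381 bp (signal 136). The RNA-binding protein gene msi (musashi) had them at -293 bp (253) and -82 bp (80.2). The members made up 131 peaks on 2L, 155 on 2R, 137 on 3L, 159 on 3R, 135 on X and 3 on chromosome 4.

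The optimal list held exactly the strongest 2241 of the 30000 pooled candidates (7.47%), so passing is a threshold on pooled signal. Of the other candidates, 365 overlapped an optimal peak without being one, 108 of them at one-strand promoters, and these were left out of the comparison. Of the remaining 27394 non-passing candidates, 4776 were at one-strand promoters by the same rule on starts (17.4%) and served as the comparison. The authors labelled the candidate list as peaks and background, so the comparison set can hold background as well as weak peaks. Its median signal was 28.0 in the pooled list. Just inside the threshold were alph (68.7) and Inx7 (68.8), and just outside SamDC (68.5) and Iml1 (68.4). Of the promoter peaks, 58.2% (55.4 to 60.9) were one-strand, against 82.9% (81.9 to 83.9) of the non-passing promoter candidates. The median signal of members (109) and of two-strand promoter peaks (109, 104 to 115.5) had overlapping intervals. Of the members, 619 had the width of 384 bp that most peaks of the list share, so width carried little information.

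Summits of the members lay upstream of the start. Their median position was -151 bp (exact 95% interval -164 to -141), with quartiles at -246 and -49 bp, and 599 of 720 were upstream (83.2%, 80.3 to 85.7). Non-passing candidates at the same kind of start lay about evenly on both sides, with a median of -10 bp (-20 to -3) and 51.8% upstream (50.4 to 53.2). The block from 51 to 250 bp upstream held 367 members (50.97%) against 24.0% of the non-passing candidates. Only 86 members (11.9%) had the summit within 50 bp of the start, and 46 and 49 lay in the blocks of 51 to 250 bp and of more than 250 bp downstream. The rule sets no side, so this asymmetry was not fixed by it.

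**Figure D1:**
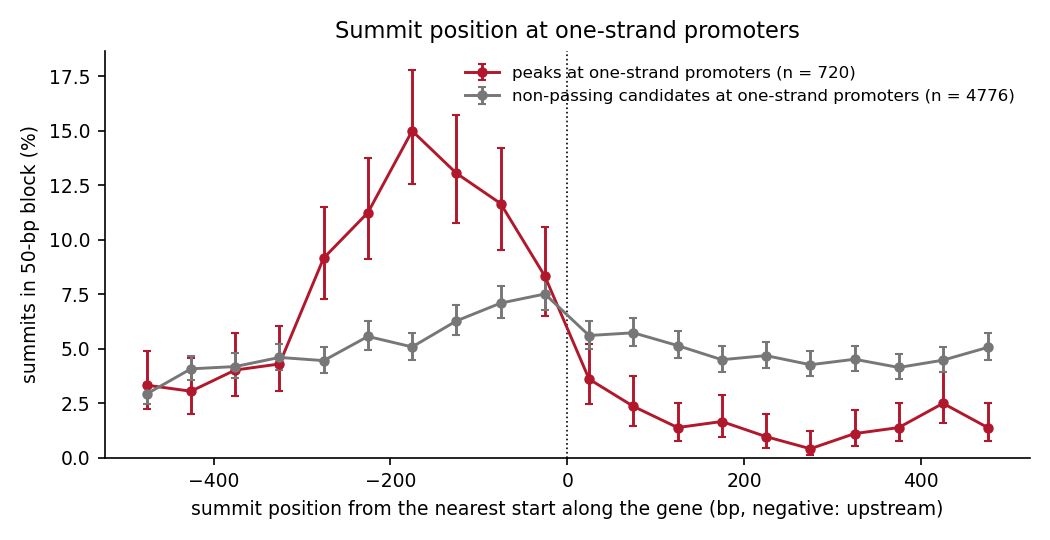
Summit position from the nearest start (x axis, bp along the gene) against the share of summits in each 50-bp block (y axis, %), with Wilson 95% intervals as bars. The 720 members crowd upstream around their median of -151 bp, while the 4776 non-passing candidates are spread over both sides.

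Each replicate alone gave the same side. The 2241 strongest peaks of replicate 1 held 723 at one-strand promoters, with a median of -162 bp (-175 to -151) and 83.8% upstream. Those of replicate 2 held 748, with a median of -109 bp (-128 to -93) and 75.1% upstream (71.9 to 78.1), nearer to the start than in replicate 1. At the members themselves the summits of both replicates lay close to the pooled summit, with a median shift of 0 bp in replicate 1 and 1 bp in replicate 2. Members of ncRNA genes were less one-sided, with 62.1% upstream (49.2 to 73.4) of 58, against 85.4% (82.5 to 87.9) of the 657 at coding genes. Two-strand promoter peaks had a median of -82 bp, but with starts on both sides the nearest one is closer by construction. Of them, 81.4% (77.9 to 84.5) lay upstream of the nearest start. This interval overlaps that of the members, so the upstream side was not particular to one-strand peaks.

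The position changed along the ranking by signal. In successive bins of 2241 pooled candidates the median position of one-strand summits was -151, -91.5, -71.0, -36.0 and -23.0 bp in the first 5 bins and -1.0 bp in the sixth. The share of candidates at one-strand promoters was 32.1%, 27.3%, 21.4%, 20.97%, 17.8% and 17.8% in the same bins. Further down the list the medians lay between 21 and 67.5 bp downstream. The summits thus lay furthest upstream at the top of the list, and those of the 3 bins just under the threshold were still upstream in the median, with intervals that left out 0. Unlike the non-passing comparison set, these bins keep the 108 one-strand candidates that overlap an optimal peak. Their part in the medians was not tested.

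**Figure D2:**
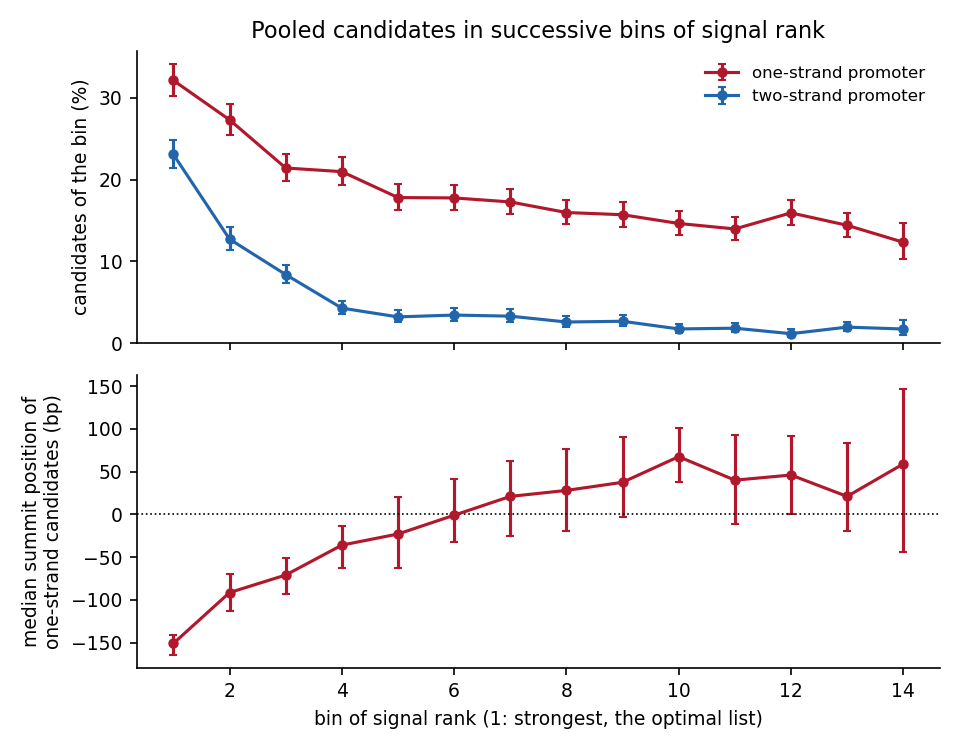
Pooled candidates in bins of 2241 by signal rank (x axis, 1 is the optimal list). The upper panel gives the share of candidates at one-strand and two-strand promoters (%, Wilson 95% intervals), and the lower the median summit position of one-strand candidates in bp with its 95% interval, which moves from -151 bp in the first bin to -1.0 bp in the sixth.

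Few member summits lay in coding sequence. A coding exon held 6 of the 720 summits (0.833%, 0.382 to 1.81), against 946 of 4776 non-passing one-strand candidates (19.8%, 18.7 to 20.96), a difference of -19.0 percentage points (Newcombe 95% interval -20.2 to -17.5). Two-strand promoter peaks had 1 of 517 summits in a coding exon (0.193%, 0.034 to 1.09). This interval overlaps that of the members, so the low share was not particular to them. Between genes lay 333 members (46.3%) and 27.7% of the non-passing candidates. In an intron of the gene itself lay 205 members (28.5%) and 19.3% of the non-passing candidates. Of these 205 members, 164 were upstream of the nearest start. Examples are px, ph-p and larp, where that start is an internal one of a longer gene. Non-coding parts of exons of the gene itself held 104 members (14.4%) and 23.4% of the non-passing candidates. The 6 in coding exons were at scny, RabGGTb, CG42365, apt, CG44812 and CG33229, with signals from 74.7 to 145.

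Since more of the non-passing summits lie downstream, the same count was made block by block. More than 250 bp downstream, 1 of 49 members (2.04%) and 505 of 1069 non-passing candidates (47.2%) were in a coding exon. From 51 to 250 bp upstream the shares were 0.817% and 3.14%, a difference of -2.32 points (-3.61 to -0.538), and in all 5 blocks the interval left out 0. Within the interquartile range of the members' GC content, 3 of 386 members (0.777%, 0.265 to 2.26) and 90 of 1763 non-passing candidates (5.10%, 4.17 to 6.23) were in coding exons. In replicate 1 alone the shares were 0.830% of the strongest and 17.4% of the rest, and in replicate 2 alone 0.535% and 25.1%. This comparison was chosen after the data had been seen.

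The DNA under the summits was poor in G and C. The median GC content of the 101-bp windows was 34.7% (33.7 to 35.6) at members, 44.6% (43.6 to 44.6) at non-passing one-strand candidates and 32.7% (31.7 to 33.7) at two-strand promoter peaks. In the block from 51 to 250 bp upstream the medians were 32.7% for members and 39.6% for non-passing candidates, and within 50 bp of the start 47.0% and 47.5%. Replicate 1 had 33.7% at its strongest one-strand peaks and 40.6% at the rest, and replicate 2 had 38.6% and 47.5%. The direction was shared, but the peaks of replicate 2 were richer in GC on both sides of its threshold.

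Along the starts themselves the members showed a step. From -200 to -101 bp the mean GC content of the 704 starts was 36.1% (SE 0.420), below the 38.6% (SE 0.083) of all 17926 one-strand starts of the genome. From -100 to -1 bp it was 47.0% (SE 0.357) against 42.2% (SE 0.075), now above. The members' starts thus combined a GC-poor stretch, in which the summits lie, with a GC-rich stretch next to the start. From 100 to 199 bp downstream the means were 44.9% in both. Starts of two-strand peaks also rose between these upstream blocks, from 31.7% to 40.2%. Those of non-passing candidates rose from 39.0% to 44.2%, and all one-strand starts rose as well. A rise as such was thus not particular to members.

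**Figure D3:**
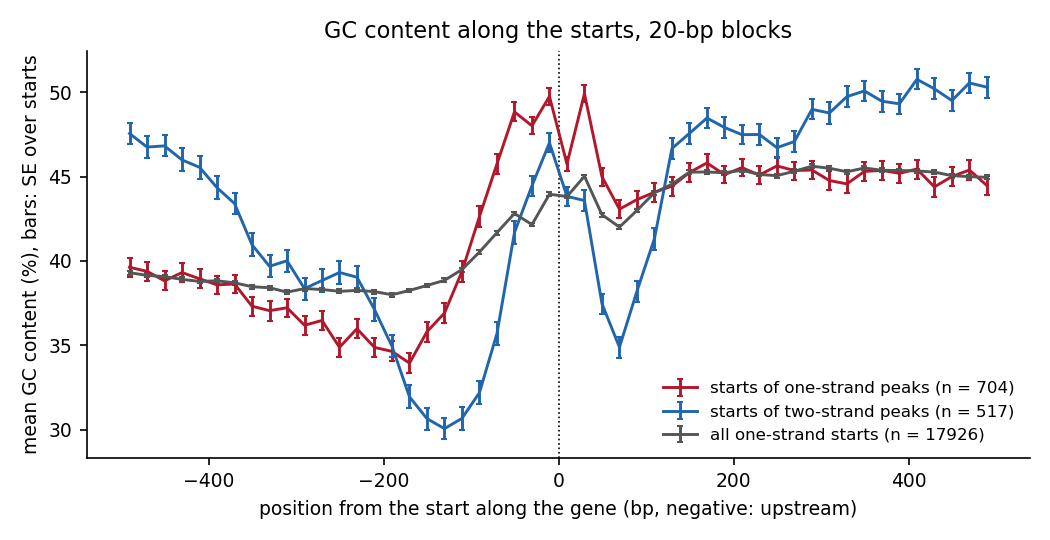
Mean GC content (y axis, %, bars SE over starts) in 20-bp blocks along the gene from the start (x axis, bp). The starts of the members lie under all one-strand starts around -200 bp and above them in the last 100 bp before the start, and the starts of two-strand peaks have a deeper dip upstream.

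Motifs were counted as windows with at least 1 match in either orientation, no further than 50 bp from the summit, for 14 motifs in 2 comparisons. The 28 intervals are not adjusted for their number. Besides these, all hexamers, heptamers and octamers were scanned in an exploratory comparison of upstream members with upstream non-passing candidates, from which nothing is reported, so more sequence comparisons were looked at than the 28. At least 1 of the 14 was present in 62.9% of the members. This share was not computed for any comparison set, so it is a description only and sets the members apart from nothing. CGATA also lies within every TATCGATA, and 105 of the 111 members with CGATA had a match outside a DRE. The shares over windows of the same length at all 17926 one-strand starts, centred at the members' median position, were 16.7% for TATAAA, 13.1% for CGATA, 2.48% for CANCNCTA, 0.619% for TATCGATA and 3.26% for GAGAGAG.

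Against two-strand promoter peaks, 6 motifs stood apart, 5 of them in a lower share of members. The windows were not matched for distance from the start. Within 50 bp of the nearest start lay the summits of 11.9% of members and 25.3% of two-strand peaks. The part of position in these differences was not tested. CGATA was in 15.4% of members (13.0 to 18.2) and 22.2% of two-strand peaks (18.9 to 26.0), a difference of -6.83 points (-11.3 to -2.43). CANCNCTA was in 6.11% and 10.1%, a difference of -3.95 points (-7.22 to -0.899). TATCGATA was in 1.81% and 3.68% (-1.87 points, -4.00 to -0.053), and Motif 6, GTATNTTT, in 3.75% and 6.96% (-3.21 points, -5.99 to -0.703). TATAAA was in 21.5% and 27.5% (-5.94 points, -10.9 to -1.10). GAGAGAG went the other way, with 15 members (2.08%, 1.27 to 3.41) and 0 of 517 two-strand peaks, which allows a share of up to 0.580%.

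These differences did not all hold in each replicate. CANCNCTA was lower and GAGAGAG higher at one-strand than at two-strand peaks in both replicates alone, with intervals that left out 0. The intervals of the DRE and of the BEAF-32 core took in 0 in replicate 1 (-0.554 points, -2.29 to 0.940, and -4.09 points, -8.48 to 0.176). That of TATAAA took in 0 in replicate 2 (-2.52 points, -6.88 to 1.60), and that of GTATNTTT did so in both. The interval of the DRE also took in 0 with transposable elements kept as genes (-1.80 points, -3.90 to 0.002), and within 25 bp of the summit CANCNCTA was the only 1 of the 6 still apart. With a distance limit of 250 bp the difference for CANCNCTA was 0.161 points (-3.81 to 3.68), and the intervals of the BEAF-32 core (-4.60 points, -10.1 to 0.564), the DRE (-1.76 points, -4.63 to 0.528) and GAGAGAG (1.23 points, -0.033 to 2.40) took in 0. Within the interquartile range of the members' GC content those of TATAAA (-4.23 points, -10.6 to 1.94) and of the DRE (-1.52 points, -4.22 to 0.549) did so too. The strongest members with CGATA were CG14100, CR44619 and MFS10, with CANCNCTA CG10600, CG7379 and Rdh1, and with GAGAGAG prage, magu and CG31886.

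**Figure D4:**
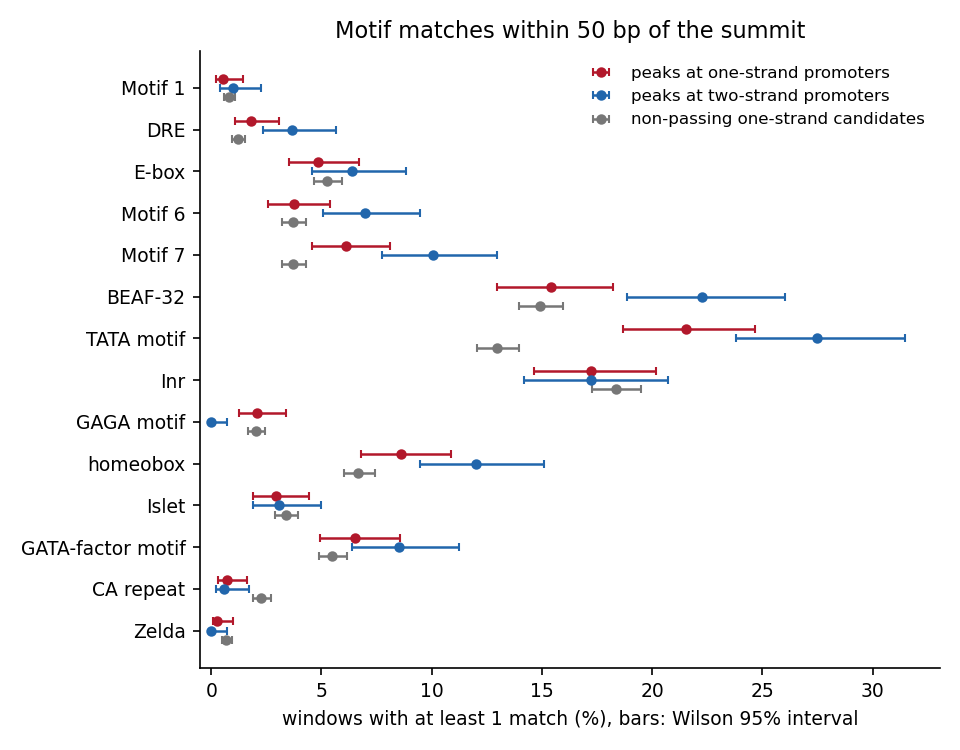
Share of 101-bp windows with at least 1 match (x axis, %, bars Wilson 95% intervals) for 14 motifs (y axis) at members, two-strand promoter peaks and non-passing one-strand candidates. The TATA motif is at 21.5%, 27.5% and 13.0% and the BEAF-32 motif at 15.4%, 22.2% and 14.9%.

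Against non-passing one-strand candidates, 3 motifs stood apart. TATAAA was in 155 members (21.5%, 18.7 to 24.7) and 13.0% of candidates (12.1 to 13.97), a difference of 8.55 points (5.53 to 11.8). The differences were 6.33 points in replicate 1 (3.21 to 9.71) and 5.54 in replicate 2 (3.10 to 8.32). Within the interquartile range of the members' GC content, however, the difference was 0.53 points (-3.48 to 5.04), and CANCNCTA (1.21 points, -0.858 to 4.02) and the repeat CACACACA (-1.15 points, -2.06 to 0.428) were not apart there either. CANCNCTA was in 6.11% and 3.73% (2.38 points, 0.752 to 4.44), and the repeat CACACACA in 0.694% and 2.26% (-1.57 points, -2.18 to -0.569). In replicate 1 alone the CANCNCTA difference was 1.16 points (-0.305 to 3.05), and in replicate 2 alone that of the repeat was -0.956 points (-1.82 to 0.325). Block by block along the start, the TATAAA interval left out 0 from 51 to 250 bp upstream (6.37 points, 1.70 to 11.4) and more than 250 bp downstream (20.2 points, 9.37 to 34.2) and took in 0 in the other 3 blocks, for instance more than 250 bp upstream (3.16 points, -2.81 to 10.2). The CANCNCTA interval left out 0 only within 50 bp of the start (8.15 points, 1.11 to 17.7), and more than 250 bp downstream the difference was -2.43 points (-3.54 to 4.88). Against the strongest 477 of the non-passing candidates CANCNCTA had a difference of -0.807 points (-3.86 to 1.98). With both replicates pooled the CGATA difference was 0.488 points (-2.18 to 3.47). Its interval left out 0 in replicate 1 alone (2.72 points, 0.035 to 5.72) and in replicate 2 alone (3.30 points, 0.572 to 6.33). Within the interquartile range of GC it took in 0 (0.237 points, -3.53 to 4.55). The TATCGATA interval left out 0 in replicate 2 alone (1.45 points, 0.550 to 2.80) and took in 0 in replicate 1 alone (0.287 points).

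Results for the letters of homeodomain sites depended on the setting. TAATTA, the core of many homeodomain sites, was in 8.61% of members (6.78 to 10.9), with differences of -3.38 points from two-strand peaks (-6.97 to 0.017) and 1.93 points from non-passing candidates (-0.049 to 4.30). Against non-passing candidates the interval left out 0 in replicate 1 alone (2.21 points, 0.032 to 4.77) and in replicate 2 alone (2.53 points, 0.904 to 4.56). It also did so at a limit of 250 bp (3.41 points, 1.15 to 6.07), at 1000 bp (2.12 points, 0.285 to 4.31), within 25 bp of the summit (2.07 points, 0.566 to 4.01), for coding starts only and with transposable elements kept as genes. Within the interquartile range of the members' GC content the difference had the other sign, with an interval that took in 0 (-2.41 points, -5.17 to 1.01). Against two-strand peaks TAATTA was lower within 100 bp of the summit (-9.76 points, -14.3 to -5.35), in replicate 1 alone (-3.78 points, -7.58 to -0.134) and with 1 summit per start (-3.42 points, -7.02 to -0.002). CTAATG, a core bound by Islet-type factors in vertebrates, was in 2.92% (1.92 to 4.42), with differences of -0.178 (-2.30 to 1.73) and -0.454 points (-1.60 to 1.12). The intervals of the initiator, E-box, GATA-factor, Motif 1 and Zelda letters took in 0 in both comparisons with the windows and limits as described, and those of the initiator, E-box and Motif 1 left it out under some alternatives. A missing match says only that these letters are not in the window.

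Core elements were also looked for at their own places relative to the start, whatever the position of the summit. On the strand of the gene and wholly within -38 to -20 bp, where a TATA box sits, TATAAA was found at 19 of 704 member starts (2.70%, 1.73 to 4.18), below the 5.74% (5.41 to 6.09) of all one-strand starts, a difference of -3.04 points (-4.07 to -1.53). The shares were 2.44% in replicate 1 and 3.13% in replicate 2. The initiator letters TCAGT within 7 bp of the start were found at 14.3% of member starts (11.95 to 17.1) against 10.8% (10.4 to 11.3), a difference of 3.52 points (1.08 to 6.34). Among coding starts only, the initiator difference was 2.46 points (-0.119 to 5.41). The starts of non-passing candidates had the initiator letters at 13.2% (12.2 to 14.2), an interval that overlaps that of the members, so the higher share was not particular to members. They had TATAAA at the TATA box place in 4.83% (4.24 to 5.51), above the interval of the members. At starts of two-strand peaks the initiator share was 3.87% (2.52 to 5.90) and the TATAAA share 2.13% (1.19 to 3.77), which overlaps that of the members. These places were examined after the data had been seen.

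The members were then traced in each replicate. A summit within 100 bp among the 2241 strongest peaks of replicate 1 was found for 592 members (82.2%, 79.3 to 84.8), where the share over all optimal peaks was 80.7%. In replicate 2 it was 539 members (74.9%, 71.6 to 77.9), beside 71.6% of all optimal peaks. Both shares were near those of the whole list. Both replicates had such a summit for 431 members (59.9%), replicate 1 alone for 161, replicate 2 alone for 108 and neither for 20. Two-strand peaks were matched more unevenly, at 85.1% (81.8 to 87.9) in replicate 1 and 66.0% (61.8 to 69.9) in replicate 2. The pooled signal holds the reads of both replicates, so these matches are not independent of the choice of members.

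Matching differed with the pooled signal. Among the 180 strongest members 178 were matched in replicate 1 and 173 in replicate 2, and among the 180 weakest 93 and 85. The pooled signal holds the reads of both replicates and set the list. A difference of this kind is therefore built into the ranking and is a description only. No candidate at all lay within 100 bp of 18 members in replicate 1 and of 45 in replicate 2. The strongest of these was at msi, with a signal of 226 in replicate 1 and none in replicate 2, under a window of 19.8% GC. Glyp, the glycogen phosphorylase gene, had 173 in replicate 1 and none in replicate 2, with 15.8% GC. At CG31635 and Drat the summit was likewise absent from replicate 2, and at Dpp10 from replicate 1. The GC values of msi and Glyp do not stand for all 45 members absent from replicate 2.

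The ratio of the replicates moved with base composition. Over the 657 members with a candidate in both, signals in the replicates had a Spearman's rho of 0.52 across peaks, which share both libraries and are not replicates. The median log2 ratio of replicate 2 over replicate 1 was -1.10 (-1.25 to -0.92) in windows of up to 28.7% GC, -0.68 up to 34.7%, -0.50 up to 42.6% and -0.42 (-0.62 to -0.35) above. Over all optimal peaks the same 4 ranges gave -1.01, -0.71, -0.56 and -0.48, close to the values of the members, which are among them. The 2 deposited scales differ, so only the trend over GC is of interest. Its part in the absences from replicate 2 was not tested.

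**Figure D5:**
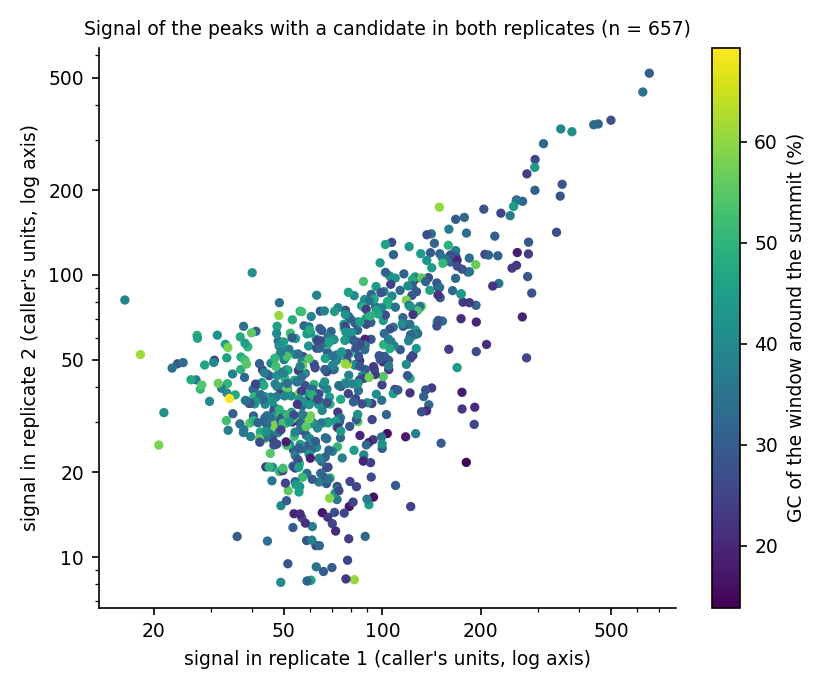
Signal in replicate 1 (x axis, log scale) and in replicate 2 (y axis, log scale) of the 657 members with a candidate in both, coloured by the GC content of the window (%). The strongest members lie along 1 line, and GC-poor windows lie lower in replicate 2 for a given signal in replicate 1.

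Of the 14048 genes with a one-strand start, 669 had a member there (4.76%). The 10477 protein-coding genes among them had one in 5.81% (5.38 to 6.28), and the 1608 lncRNA genes in 2.92% (2.21 to 3.87), with CR31840, CR44619 and CR31044 the strongest. Genes of cytosolic ribosomal proteins had one at 12 of 58 (20.7%, 12.3 to 32.8), in first place RpL23A (signal 187), RpL24 (144) and RpL11 (141). The other lists of the gene expression machinery had intervals that took in the 4.76% of all genes. A member was found at 1 of 20 mitochondrial ribosomal protein genes (mRpL41), 1 of 14 aminoacyl-tRNA synthetase genes (PheRS-m), 1 of 29 translation initiation factor genes (eIF2A) and 0 of 26 proteasome genes, which allows a share of up to 11.5%. Respiratory chain genes had 1 of 52 (ND-B22), also with an interval that took in that share (0.340 to 10.1). Among small RNA genes the counts were 2 of 201 tRNA genes, 3 of 293 snoRNA and snRNA genes, with snRNA:U1:95Ca the strongest, and 0 of 247 miRNA genes (up to 1.21%). The intervals of tRNA genes (0.273 to 3.55) and of snoRNA and snRNA genes (0.349 to 2.97) lay below 4.76%. So did that of lncRNA genes and the share allowed for miRNA genes. The intervals of protein-coding genes and of cytosolic ribosomal protein genes lay above it.

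The summits of the 12 ribosomal protein members lay near the start. They were between -120 and 8 bp from the start, with a median of -37.0 bp against -151 bp for all members. The GC content of their windows ran from 36.6% to 60.4%, with a median of 50.99% against 34.7%. RpL23A had signals of 187 in the pooled list, 87.6 in replicate 1 and 94.8 in replicate 2, and RpS5a had 120, 48.3 and 71.8. Replicate 2 had the higher signal at 7 of the 12, RpL23A and RpS5a among them, and at 89 of 657 members with a candidate in both (13.5%). The scales of the replicates differ, so the sign at a single gene has no meaning of its own. All 12 were among the strongest peaks of replicate 2 and 8 among those of replicate 1. Over all members these shares were 74.9% and 82.2%. These values were looked at after the data had been seen, and no test was made of them.

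The members' starts more often belonged to genes with alternative starts. Of the 704 starts, 54.8% (51.1 to 58.5) belonged to a gene with 2 or more starts, against 40.4% (39.6 to 41.1) of all one-strand starts, and 67.0% (63.5 to 70.4) were the first start of their gene against 73.3%. Of the starts of non-passing candidates, 43.6% (42.2 to 45.1) belonged to a gene with 2 or more starts and 71.8% (70.5 to 73.2) were the first start. Within another gene lay 15.6% (13.1 to 18.5) against 24.1% of all one-strand starts and 18.7% (17.6 to 19.9) of the starts of non-passing candidates, whose interval overlaps that of the members. The upstream neighbour was on the same strand for 60.8% (56.8 to 64.6) of the starts that lay in no other gene, against 58.0% (57.2 to 58.8), with overlapping intervals. The gap to that neighbour had a median of 1177 bp (1057 to 1369) against 1296 bp (1256 to 1352).

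The line between one-strand and two-strand is a matter of distance. A start on the other strand lay beyond 500 and up to 1000 bp away from 103 members (14.3%, 11.9 to 17.1) and up to 2000 bp away from 215 (29.9%, 26.6 to 33.3), against 16.8% and 33.5% of the non-passing candidates. The members closest to a second strand were CG7849 (505 bp) and CG4766 (507 bp), and the two-strand peaks closest to being one-strand were CG4297 (500 bp) and CG10802 (499 bp). At the limit of distance itself, CR44828 (-500 bp) and CG10543 (-498 bp) were just inside and CR42657 (-507 bp) and Pen (508 bp downstream) just outside. For 505 members no start of the other strand lay within 2000 bp.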

How the data were processed

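Chromatin immunoprecipitation with sequencing of GFP-tagged tup gave peak lists for 2 replicates and for both pooled. The authors deposited, per peak, a signal value, a -log10 q value and a summit position. The -log10 q value was at its ceiling for 294 members (40.8%), beside 35.0% of all optimal peaks. Aligner and caller were not given in the sources used here. Coordinates are dm6, counted from 1. Starts were those of Ensembl release 115 (BDGP6.54) without its 5889 transposable elements, and bases came from the RefSeq copy of the assembly. Classes, motif matches and intervals were computed with Python 3.11.15, numpy 2.4.6, pandas 2.3.3 and scipy 1.17.1, and the code was tested on simulated data.

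Shares carry Wilson and differences Newcombe 95% intervals, and medians exact order-statistic ones. A difference is apart from 0 where its interval leaves out 0. Peaks are not independent replicates, so intervals cover counting error only. With 1 group there was no contrast between conditions and no test. A share of 0 is given with the share of 3 counts. Members and lists were chosen with earlier results of these data known. Named genes are the 15 strongest members, the 5 strongest without a candidate in 1 replicate, up to 3 per motif and list, those nearest to each limit and the starts with most summits. Others, such as RpS5a and the genes of coding-exon summits, were named after their values were seen. Each replicate alone and other limits, start sets, windows and match distances served as alternatives.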

Additional observations from a re-analysis of the deposited data

How the results depend on the processing

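Upstream position, low GC content and the near absence from coding exons kept their direction under each alternative run, and so did the low share of TATAAA at the TATA box place. The share at one-strand promoters was 29.1% with a distance limit of 250 bp, 36.3% with 1000 bp, and 35.3% for optimal peaks above their median signal. The median position was -108 bp at 250 bp, and the share upstream 76.5% at 1000 bp. Each replicate alone gave a share of 32.3% to 33.4%, a median position of -162 to -109 bp, 75.1% to 83.8% upstream, a width of 376 to 384 bp, 61.6% to 67.6% of members with at least 1 motif, 4 to 7 motifs apart from two-strand peaks and 4 to 5 apart from non-passing candidates, where both together gave 6 and 3. Members with at least 1 motif were 41.7% within 25 bp and 87.6% within 100 bp of the summit, again without a comparison set. Motifs apart from two-strand peaks were 2 with the limit of 250 bp and 1 within 25 bp, and motifs apart from non-passing candidates 1 within the interquartile range of GC, which was Motif 6 (-2.51 points, -4.27 to -0.056) and none of the 3 named. The match in both replicates was 46.8% within 50 bp, 65.8% within 200 bp and 67.6% by overlap. The initiator difference was 1.75 points at 250 bp and 2.46 for coding starts, no longer apart from 0. Motif 7 changed sign against two-strand peaks at 250 bp (0.161 points) and against the strongest 477 non-passing candidates (-0.807 points). Of the 102 alternative values for the 9 motif differences apart from 0, 72 stayed apart, 28 did not and 2 changed sign, and of 220 for the others 24 became apart, 7 of them TAATTA against non-passing candidates and 3 TAATTA against two-strand peaks. The cause of these changes was not tested. The dm3 optimal list held 2129 peaks. GC content, coding exons and core element places were added after seeing the data. No paired analysis was possible because there was 1 group. Unknown depth limits every share of 0.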
